A study of Homo sapiens with 8 samples.

Results

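Oxidative phosphorylation members were followed on 8 bead arrays of HT144, an established human cell line that the labels place as a melanoma metastasis. They were chosen by gene symbol, as nuclear genes of the NDUFA, NDUFB, NDUFC, NDUFS, NDUFV, UQCR, COX4 to COX8, ATP5 and SDH families. The rule itself uses no measured value. The rule found 84 symbols among 20044 with a probe of their own, and 78 of the 84 passed the detection filter that left 13974 genes for testing. A probe passed when its deposited detection p was under 0.05 on at least 2 arrays. The members held 35 genes of complex I, 3 of complex II, 8 of complex III, 17 of complex IV, 18 of complex V and 3 others, of which 34, 3, 8, 13, 18 and 2 passed. The 3 others were the pseudogenes UQCRBP1 and ATP5F1EP2 and the antisense RNA NDUFB2-AS1.

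The groups were 2 arrays of cells overexpressing SETDB1 (SETDB1 OE), 3 arrays of cells overexpressing the mutant that the labels call HC/KA (HC/KA-SETDB1 OE) and 3 arrays of cells with an empty vector. All 3 groups share the HT144 background. SETDB1 is a histone methyltransferase that places a repressive mark on lysine 9 of histone H3. The sources used here do not give the promoter that drove the constructs, the changes behind HC/KA, whether a line was 1 clone, or whether replicates were grown apart. A p-value here therefore weighs a difference against variation among these 8 samples, and that variation may be technical. All arrays lay on 1 chip, and position on it was tied to group.

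Oxidative phosphorylation is the way mitochondria make most ATP. Complex I takes electrons from NADH and complex II takes them from succinate. Ubiquinone carries them to complex III, and cytochrome c carries them on to complex IV, which reduces oxygen. Protons pumped on the way drive complex V, the ATP synthase. Nuclear genes encode most subunits, and the transcription factors NRF1, GABPA, ERR and YY1, with the coactivator PGC-1alpha, are known regulators of these genes. In melanoma, PGC-1alpha marks a group of tumours with high mitochondrial gene expression.

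In these data 3 members passed the test in any comparison, all 3 between the constructs (3.85% of the members, against 4.34% of all genes). COX7B2, a testis isoform of a small complex IV subunit, was below detection on every HC/KA-SETDB1 OE array. It was detected on all SETDB1 OE and empty vector arrays. NDUFA7, an accessory subunit of complex I, was lower in SETDB1 OE than in HC/KA-SETDB1 OE. NDUFB1, another accessory subunit of complex I, was higher in SETDB1 OE than in HC/KA-SETDB1 OE. No member was called between SETDB1 OE and empty vector.

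The start regions of the genes that carried these differences are printed first, from RefSeq (GRCh38.p14), each running from 250 bases before to 50 bases after an annotated start. COX7B2 is shown beside COX7B, the widely expressed form of the same subunit, and NDUFB1. In these 3 the CpG dinucleotides are in capitals, since CpG content separates the isoform from most members.
COX7B2, chr4:46909196-46909495, minus strand: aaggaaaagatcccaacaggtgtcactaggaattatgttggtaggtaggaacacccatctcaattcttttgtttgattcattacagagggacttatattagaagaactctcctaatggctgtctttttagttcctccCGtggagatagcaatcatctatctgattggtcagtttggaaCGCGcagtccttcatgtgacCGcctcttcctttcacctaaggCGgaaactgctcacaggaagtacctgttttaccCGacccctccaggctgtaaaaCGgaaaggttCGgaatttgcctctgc
COX7B, chrX:77899218-77899517, plus strand: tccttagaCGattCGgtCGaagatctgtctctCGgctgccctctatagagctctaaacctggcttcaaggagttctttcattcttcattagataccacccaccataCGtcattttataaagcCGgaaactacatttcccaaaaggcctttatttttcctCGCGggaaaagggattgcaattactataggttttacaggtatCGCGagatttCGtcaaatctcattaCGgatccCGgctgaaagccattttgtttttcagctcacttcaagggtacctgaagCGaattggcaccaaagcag
NDUFB1, chr14:92121657-92121956, minus strand: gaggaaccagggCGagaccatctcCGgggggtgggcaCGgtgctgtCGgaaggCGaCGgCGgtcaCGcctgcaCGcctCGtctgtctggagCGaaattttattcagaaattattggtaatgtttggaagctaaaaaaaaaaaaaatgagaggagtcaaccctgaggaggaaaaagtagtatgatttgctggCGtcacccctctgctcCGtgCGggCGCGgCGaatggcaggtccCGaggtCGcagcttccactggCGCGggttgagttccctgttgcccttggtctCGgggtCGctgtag
The COX7B2 window held 8 CpG and 45.3% G or C. Only 6 of the 81 member windows held fewer CpG. The COX7B window held 14 CpG and 44.0% G or C, and the NDUFB1 window held 23 CpG and 57.0%. The median was 21 over the member windows, 21 over 22199 windows of protein-coding genes and 14 over all 35116 windows.

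Of the 84 members, 68 matched the table of start regions, with 81 windows in all. They were searched on both strands for 4 motifs. The NRF1 motif GCGCANGCG lay in 22 of the 81 member windows (27.2%), against 9.64% of the windows of protein-coding genes and 7.52% of all windows. The ETS motif CCGGAAGT, the kind bound by GABPA, lay in 12 member windows (14.8%), against 5.34% and 4.14%. The YY1 motif AAGATGGC also lay in 12 member windows (14.8%), against 3.53% and 2.89%. The ERR motif TCAAGGTCA lay in 1 member window (1.23%), that of SDHD, against 0.243% and 0.353%. NDUFA7 and SDHD are shown as a called member with the YY1 motif and as a member with 3 of the 4 motifs, among them the single ERR match. Capitals here mark the motif matches, on either strand.
NDUFA7, chr19:8321326-8321625, minus strand: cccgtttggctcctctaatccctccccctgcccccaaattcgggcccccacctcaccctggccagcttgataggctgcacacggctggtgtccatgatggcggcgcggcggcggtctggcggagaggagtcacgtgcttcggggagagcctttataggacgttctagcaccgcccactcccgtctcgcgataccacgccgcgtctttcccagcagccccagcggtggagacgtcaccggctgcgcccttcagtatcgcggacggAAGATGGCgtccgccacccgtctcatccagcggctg
SDHD, chr11:112086623-112086922, plus strand: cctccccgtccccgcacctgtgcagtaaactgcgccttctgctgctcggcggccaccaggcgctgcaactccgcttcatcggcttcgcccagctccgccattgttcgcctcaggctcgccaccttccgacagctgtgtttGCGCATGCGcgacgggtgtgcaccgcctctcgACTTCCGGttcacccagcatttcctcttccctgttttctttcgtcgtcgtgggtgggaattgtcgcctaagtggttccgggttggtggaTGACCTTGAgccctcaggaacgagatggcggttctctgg
The windows of COX7B2, COX7B and NDUFB1 held none of the 4 motifs, which says only that these letters are not in those windows. A motif match is a description of sequence and was not set against binding data.

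The arrays were alike in brightness, with a median raw intensity of 89.0 to 94.4 and 44.6% to 45.7% of all probes detected. Of the 113 member probes, 86.7% to 91.2% were detected on each array. HC/KA-SETDB1 OE replicate 2 correlated more with empty vector replicate 3 (r = 0.987 over genes) than with either array of its own group (0.961 and 0.978), and HC/KA-SETDB1 OE replicate 1 likewise correlated a little more with empty vector replicate 1 (0.970) than with its own group (0.961 and 0.969). Results that rest on 1 of these arrays are also given without it. The SETDB1 probe did not separate the groups as the labels would order them. It read 8.0002 and 7.66 on the arrays labelled SETDB1 OE, 8.32, 8.42 and 8.9999 on the HC/KA-SETDB1 OE arrays, and 8.25, 8.19 and 8.04 on the empty vector arrays (log2 intensity), and it was called in none of the 3 comparisons (lowest adjusted p 0.107). Whether the probe lies inside the constructs is not given, so the label "SETDB1 OE" was not checked by it. The pigment cell markers MLANA, PMEL, TYR, TYRP1, SOX10, MITF and S100B were measurable, and DCT did not pass. Their summed linear level was 6342 to 6531 in SETDB1 OE, 7627 to 12360 in HC/KA-SETDB1 OE and 13140 to 20000 in empty vector arrays. Most of these pigment cell markers did not share the lower sum in HC/KA-SETDB1 OE. Only 2 of the 7 were lower in HC/KA-SETDB1 OE than in empty vector (median log2 change 0.12). In SETDB1 OE all 7 were lower than in empty vector (median -1.13). All 6 fibroblast markers also passed, with summed levels of 890.9 to 1691 in SETDB1 OE, 2236 to 2490 in HC/KA-SETDB1 OE and 1101 to 1842 in empty vector arrays. The higher sum in HC/KA-SETDB1 OE was not shared by most of them. Against empty vector, 5 of the 6 were lower in HC/KA-SETDB1 OE (median log2 change -0.35, highest 1.24) and 5 in SETDB1 OE (median -0.09). Of the markers of other cell types, 1 of 6 epithelial, 3 of 6 blood and 2 of 4 endothelial ones passed, and PTPRC, CD3E, PECAM1, CDH5 and EPCAM were among those that did not. The part of these marker differences in the results below was not tested.

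The arrays labelled SETDB1 OE were compared with empty vector to ask what carrying that construct changed, with the reading of the SETDB1 probe above as a limit on the label. None of the 78 members was called at an adjusted p under 0.05 in limma, where 0.265% of all genes tested were called, 0.200% higher and 0.0644% lower. At an unadjusted p under 0.05 there were 3 members, COX7B2 higher and NDUFA7 and ATP5F1D lower, against 10.8% of all genes (5.14% higher, 5.69% lower). The arrays of the groups did not overlap for 26 members (33.3%), 8 of them higher and 18 lower in SETDB1 OE, against 32.0% of all genes (15.7% higher, 16.4% lower). The median log2 fold change was -0.04 over the members, with 45 of 78 below 0 (50.1% of all genes), and -0.0011 over all genes. A log2 change beyond 0.5 either way was seen in 3 members (3.85%) and in 16.2% of all genes. The median absolute change was 0.15 over the members and 0.22 over all genes. The 95% interval of the change lay within 2-fold either way for 74 of the 78 members (94.9%), against 74.6% of all genes. The exceptions were COX7B2, NDUFA7, NDUFS7 and UQCRC2. The members also varied less between arrays of a group, with a median within-group SD of 0.17 against 0.27 over all genes. Shares by size of change or by interval, here and in the other comparisons, therefore do not set like against like. The part of this spread in them was not tested.

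The comparison of HC/KA-SETDB1 OE with empty vector asked the same of the mutant form. COX7B2 was the 1 member called, and it fell. That is 1 of 78 members (1.28%), against 0.322% of all genes, 0.0787% higher and 0.243% lower. It was also the 1 member (1.28%) with a log2 change beyond 0.5 either way, against 14.6% of all genes. No other member reached an unadjusted p under 0.05, where 12.5% of all genes did. Groups did not overlap for 6 members (7.69%), 2 higher and 4 lower in HC/KA-SETDB1 OE, against 16.9% of all genes (8.48% higher, 8.38% lower). The median log2 fold change was -0.02 over the members, with 41 of 78 below 0 (48.2% of all genes), against 0.01 over all genes. The 95% interval lay within 2-fold for 75 members (96.2%), against 80.2% of all genes, and the exceptions were COX7B2, UQCR11 and SDHD.

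The constructs were also set against each other, SETDB1 OE over HC/KA-SETDB1 OE. It called 3 of 78 members (3.85%), COX7B2 and NDUFB1 higher and NDUFA7 lower in SETDB1 OE, where 4.34% of all genes were called, 2.08% higher and 2.26% lower. At an unadjusted p under 0.05 there were 12 members (15.4%), 7 of complex I, 1 of complex III, 2 of complex IV and 2 of complex V, against 22.1% of all genes. Groups did not overlap for 28 members (35.9%), 11 higher and 17 lower, against 36.9% of all genes (17.8% higher, 19.1% lower). A log2 change beyond 0.5 either way was seen in 11 members (14.1%) and in 28.0% of all genes. The median log2 fold change was -0.03 over the members and -0.01 over all genes, and 45 of 78 members lay below 0, as did 50.7% of all genes. The 95% interval lay within 2-fold for 65 members (83.3%), against 64.2% of all genes. The 3 comparisons share arrays in pairs, so their values are given side by side and not correlated. In bulk samples such as these, fewer cells of a type and less RNA per cell cannot be told apart.

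**Figure D1:**
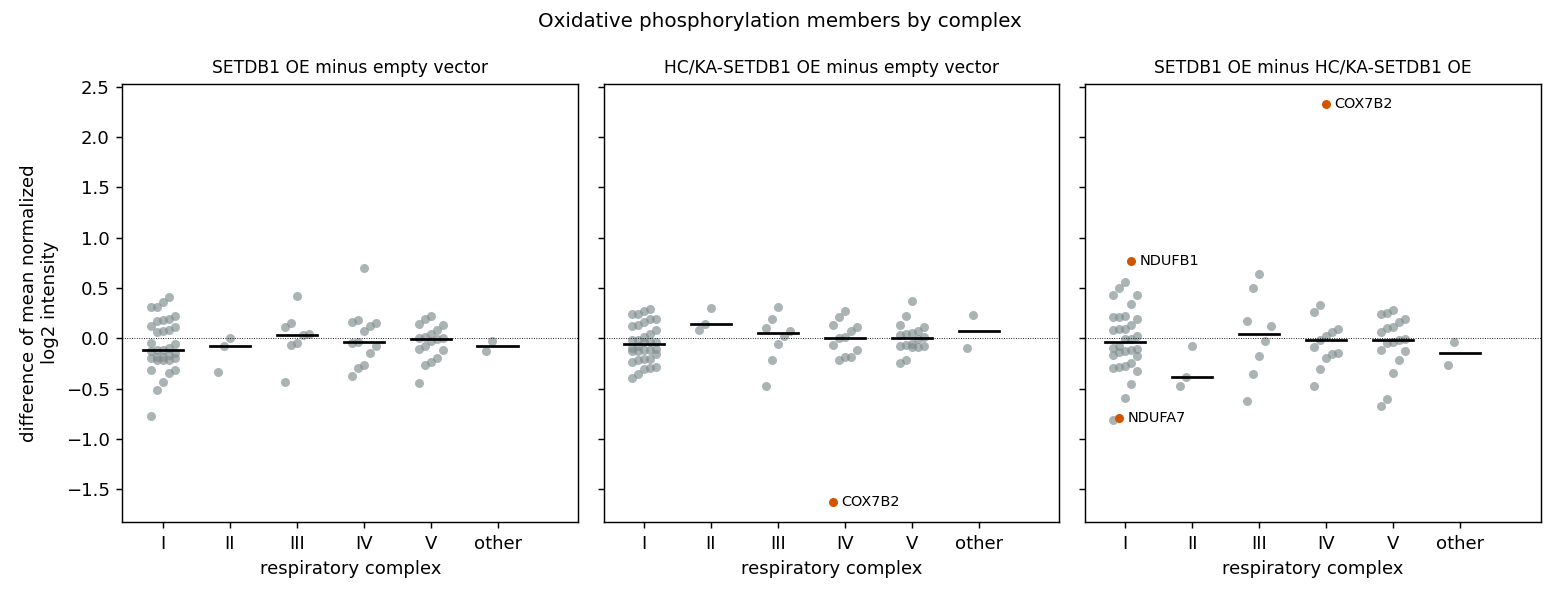
Difference of mean normalized log2 intensity for each of the 78 members that passed, by respiratory complex, in the 3 comparisons. Grey points are members not called, orange points are members called at an adjusted p under 0.05 and are named, and bars are medians. Most members lie within 0.5 of 0, while COX7B2 lies at -1.63 in HC/KA-SETDB1 OE against empty vector and at 2.33 in SETDB1 OE against HC/KA-SETDB1 OE.

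Complex IV, cytochrome c oxidase, held the member with the widest range across groups. The COX7B2 probe had raw intensities of 211.2 and 179.2 on the SETDB1 OE arrays, 78.9, 87.2 and 83.9 on the HC/KA-SETDB1 OE arrays, and 127.6, 123.2 and 176.6 on the empty vector arrays. On the HC/KA-SETDB1 OE arrays the detection p was 0.970, 0.441 and 0.438, that is, not detected. On every other array it was 2.01e-07 or lower. After background correction and normalization the log2 intensity was 6.98 and 6.64 in SETDB1 OE, 4.40, 4.52 and 4.51 in HC/KA-SETDB1 OE, and 5.93, 5.73 and 6.66 in empty vector. All HC/KA-SETDB1 OE arrays lay below all others, and 1 empty vector array lay just above the lower SETDB1 OE array.

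With no detected array, the HC/KA-SETDB1 OE level of COX7B2 is only bounded. Its measured group means were 6.81 in SETDB1 OE, 4.47 in HC/KA-SETDB1 OE and 6.1048 in empty vector. By group means alone, COX7B2 was at least 2.92-fold lower in HC/KA-SETDB1 OE than in empty vector. The fitted log2 change was -1.63 (SE 0.24, 95% interval -2.17 to -1.09, adjusted p 0.0256). By the same measure COX7B2 was at least 4.76-fold higher in SETDB1 OE than in HC/KA-SETDB1 OE. There the fitted log2 change was 2.33 (SE 0.27, 95% interval 1.73 to 2.94, adjusted p 0.00267). These bounds carry no sampling error, and the intervals include smaller changes than the bounds. Against empty vector, SETDB1 OE was higher by a log2 change of 0.70 (SE 0.27), which did not pass (adjusted p 0.375). The call against empty vector was lost when HC/KA-SETDB1 OE replicate 1 or 3, or any 1 empty vector array, was left out (adjusted p 0.0511, 0.0957, 0.0871, 0.103 and 0.0585), and it was 0.0273 without HC/KA-SETDB1 OE replicate 2. It was also lost with quantile normalization alone (log2 change -0.74, adjusted p 0.111), with an offset of 50 (-0.88, adjusted p 0.132), with no detection filter (adjusted p 0.105) and in the authors' processed values (-0.68, adjusted p 0.117). The size between the constructs also depended on the processing, with a log2 change of 1.05 in the authors' processed values, 1.12 with quantile normalization alone and 1.38 with an offset of 50, so the bounds above hold for the background correction used here. That call was lost only when SETDB1 OE replicate 1 was left out (adjusted p 0.0537) among the 18 alternatives that tested it.

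COX7B, the common form of the same subunit, read 10.99 and 10.67 in SETDB1 OE, 11.31, 10.93 and 11.16 in HC/KA-SETDB1 OE, and 11.15, 11.18 and 11.03 in empty vector. It was not called in any comparison, with log2 changes of -0.29 for SETDB1 OE and 0.01 for HC/KA-SETDB1 OE against empty vector, and -0.30 between the constructs. Of the other tissue isoforms, COX4I2 (lung), COX6A2 and COX7A1 (heart and muscle) were not detected on any array and COX8C on 1. COX6B2, a testis isoform, passed the filter at the edge of detection, on 1 of 2 SETDB1 OE, 1 of 3 HC/KA-SETDB1 OE and no empty vector array. Its log2 intensity was 4.44 to 4.91 in SETDB1 OE, 4.49 to 4.71 in HC/KA-SETDB1 OE and 4.40 to 4.62 in empty vector, so these groups overlapped. COX6B1, the common partner of COX6B2, read 12.59 and 12.64 in SETDB1 OE, 12.65, 12.47 and 12.76 in HC/KA-SETDB1 OE, and 12.52, 12.41 and 12.56 in empty vector. The 10 common complex IV subunits and the supercomplex factor COX7A2L were called in no comparison. COX7C, a small common subunit, read 13.64 and 13.66 in SETDB1 OE, 13.95, 13.75 and 13.84 in HC/KA-SETDB1 OE, and 13.83, 13.61 and 13.76 in empty vector. The median log2 change of complex IV was -0.04 for SETDB1 OE and 0.00 for HC/KA-SETDB1 OE against empty vector, and -0.01 between the constructs.

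**Figure D2:**
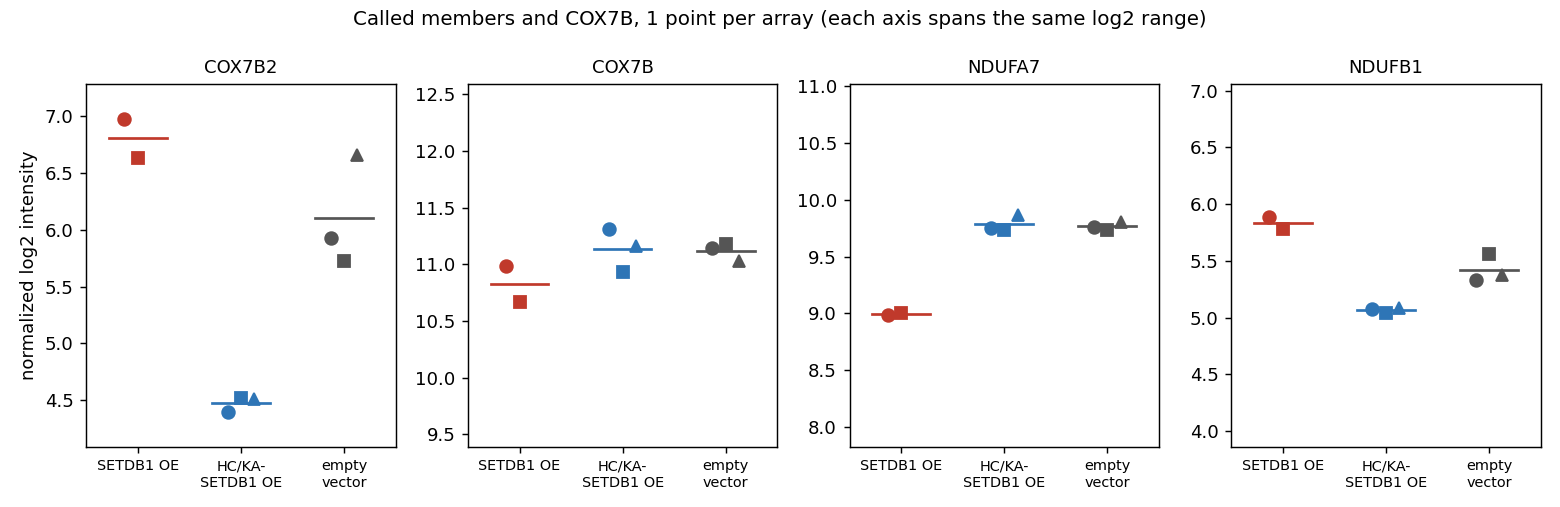
Normalized log2 intensity of COX7B2, COX7B, NDUFA7 and NDUFB1 on each array, with groups from left to right SETDB1 OE, HC/KA-SETDB1 OE and empty vector. Circles, squares and triangles are replicates 1, 2 and 3, lines are group means, and each axis spans the same log2 range. The HC/KA-SETDB1 OE arrays lie lowest for COX7B2 and NDUFB1, and the SETDB1 OE arrays lie lowest for NDUFA7.

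Complex I is the largest complex, with a peripheral arm that oxidizes NADH and a membrane arm that pumps protons. NDUFA7, an accessory subunit of the peripheral arm, had raw intensities of 642.4 and 618.8 in SETDB1 OE, 877.1, 925.6 and 908.5 in HC/KA-SETDB1 OE, and 871.9, 938.8 and 998.0 in empty vector. The normalized log2 intensity was 8.99 and 9.0021 in SETDB1 OE, 9.75, 9.74 and 9.86 in HC/KA-SETDB1 OE, and 9.76, 9.74 and 9.80 in empty vector. Both SETDB1 OE arrays lay below all 6 others, and the other groups overlapped. NDUFA7 fell in SETDB1 OE against HC/KA-SETDB1 OE by a log2 change of -0.79 (SE 0.18, adjusted p 0.0381). With the replicate number as a block that call was lost (-0.76, adjusted p 0.0649). Against empty vector the log2 change was -0.78 (SE 0.18) and did not pass (adjusted p 0.123), although it passed with quantile normalization alone (adjusted p 0.0455) and in the authors' processed values (adjusted p 0.0439). Between the constructs the call was also lost without either SETDB1 OE array (adjusted p 0.213 and 0.159), without HC/KA-SETDB1 OE replicate 3 (0.113) and without empty vector replicate 1, 2 or 3 (0.0547, 0.0677 and 0.0664).

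NDUFB1, a small accessory subunit of the membrane arm, had raw intensities of 135.7 and 129.5 in SETDB1 OE, 100.1, 102.2 and 99.1 in HC/KA-SETDB1 OE, and 107.2, 117.5 and 113.1 in empty vector. These lie a little above the median raw intensity of all probes, and the probe was detected on all 8 arrays. The normalized log2 intensity was 5.88 and 5.78 in SETDB1 OE, 5.08, 5.04 and 5.08 in HC/KA-SETDB1 OE, and 5.33, 5.56 and 5.37 in empty vector. No 2 groups overlapped. NDUFB1 rose in SETDB1 OE against HC/KA-SETDB1 OE by a log2 change of 0.77 (SE 0.19, adjusted p 0.0463). The changes against empty vector, 0.41 for SETDB1 OE and -0.36 for HC/KA-SETDB1 OE, did not pass (adjusted p 0.462 and 0.415). The call stood close to the threshold and was lost when any 1 of the 8 arrays was left out (adjusted p 0.0507 to 0.260) and with the replicate block (0.76, adjusted p 0.0730). It stood in 3 of 19 alternatives, with no detection filter, the mean of passing probes and array weights. The change was 0.28 in the authors' processed values, which carry no visible background correction.

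The other complex I members were called in no comparison. NDUFS7, the core subunit that holds the last iron-sulfur cluster before ubiquinone, read 10.29 and 10.29 in SETDB1 OE, 11.40, 10.64 and 11.25 in HC/KA-SETDB1 OE, and 10.84, 10.84 and 10.73 in empty vector. Both SETDB1 OE arrays were the lowest, and HC/KA-SETDB1 OE replicate 2 lay below the rest of its group and below all empty vector arrays. The log2 change between the constructs was -0.81 (SE 0.24, adjusted p 0.0831). Over 19 alternatives the NDUFS7 change ranged from -1.04 to -0.66 and passed in 1. That was without HC/KA-SETDB1 OE replicate 2 (-1.04, adjusted p 0.0158). NDUFA3, an accessory subunit of the membrane arm, showed a like order, at 11.13 and 11.17 in SETDB1 OE, 11.96, 11.45 and 11.84 in HC/KA-SETDB1 OE, and 11.62, 11.55 and 11.59 in empty vector. Its change between the constructs was -0.60 (adjusted p 0.125), and -0.75 without HC/KA-SETDB1 OE replicate 2 (adjusted p 0.0480), the only alternative in which it passed.

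NDUFS1, a core iron-sulfur subunit, read 6.25 and 5.59 in SETDB1 OE, 5.55, 5.32 and 5.19 in HC/KA-SETDB1 OE, and 5.71, 5.68 and 5.27 in empty vector, with overlap between SETDB1 OE and empty vector. NDUFV3, an accessory subunit of the NADH-oxidizing end, read 6.30 and 5.67 in SETDB1 OE, 5.86, 6.25 and 5.59 in HC/KA-SETDB1 OE, and 6.29, 6.57 and 6.02 in empty vector, and all groups overlapped. NDUFB5, a membrane arm subunit, read 12.33 and 12.34 in SETDB1 OE, 12.89, 12.05 and 12.47 in HC/KA-SETDB1 OE, and 12.86, 12.25 and 12.19 in empty vector. The replicate 1 arrays of the last 2 groups were their highest. NDUFA5 and NDUFC2 lay at the edge of detection, on 3 and 4 of 8 arrays, and NDUFS6 was detected on none. Over the 14 measured members of the peripheral arm the median log2 change was -0.17 for SETDB1 OE and -0.04 for HC/KA-SETDB1 OE against empty vector, and -0.07 between the constructs. Over the 20 of the membrane arm it was -0.08, -0.09 and -0.04 in the same comparisons. Within complex I, 21 of 34 members lay below 0 for SETDB1 OE and 22 of 34 for HC/KA-SETDB1 OE against empty vector, where 50.1% and 48.2% of all genes did.

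Complex II, succinate dehydrogenase, was represented by its flavoprotein SDHA and its membrane anchors SDHC and SDHD. SDHD read 9.78 and 9.73 in SETDB1 OE, 10.92, 9.57 and 9.92 in HC/KA-SETDB1 OE, and 10.30, 9.75 and 9.44 in empty vector. The replicate 1 arrays of HC/KA-SETDB1 OE and empty vector were the highest of the 8, and all groups overlapped. The SDHD change in HC/KA-SETDB1 OE against empty vector was 0.30 (SE 0.33, adjusted p 0.768), and without HC/KA-SETDB1 OE replicate 1 it was -0.09. SDHA read 9.52 and 9.54 in SETDB1 OE, 10.46, 9.67 and 9.88 in HC/KA-SETDB1 OE, and 9.95, 9.71 and 9.92 in empty vector. Both SETDB1 OE arrays were the lowest, and its change between the constructs, -0.47 (SE 0.25), did not pass (adjusted p 0.292). A second SDHA probe changed by -0.02 and did not share that order. SDHC read 10.02 and 10.05 in SETDB1 OE, 10.33, 9.97 and 10.01 in HC/KA-SETDB1 OE, and 10.30, 9.90 and 9.89 in empty vector. The median of the 3 genes, as a deviation from the empty vector mean, was -0.06 and -0.10 on the SETDB1 OE arrays, 0.59, -0.19 and 0.02 on the HC/KA-SETDB1 OE arrays, and 0.27, -0.13 and -0.14 on the empty vector arrays. The HC/KA-SETDB1 OE and empty vector arrays spread widely and overlapped the SETDB1 OE arrays, which lay close together.

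**Figure D3:**
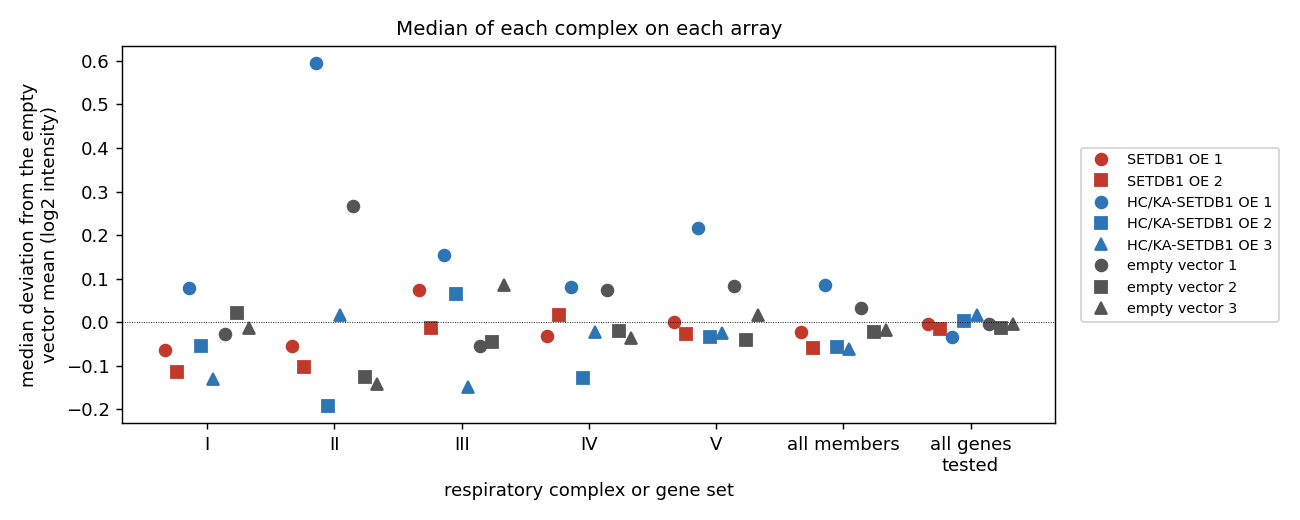
Median deviation of the members of each complex, of all members and of all genes tested from the empty vector mean, in log2 intensity, with 1 point per array. Colours are groups and shapes are replicate numbers. HC/KA-SETDB1 OE replicate 1 stands highest for complex II at 0.59, and the medians over all members lie between -0.06 and 0.09.

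Complex III passes electrons from ubiquinol to cytochrome c. None of its 8 members was called in any comparison. UQCR10, a small subunit of the complex, read 9.55 and 9.13 in SETDB1 OE, 8.96, 8.84 and 8.29 in HC/KA-SETDB1 OE, and 8.76, 8.95 and 9.03 in empty vector. Both SETDB1 OE arrays lay above the 6 others, and its change between the constructs was 0.64 (SE 0.25, adjusted p 0.162). UQCR10 had 3 passing probes, and the others changed by 0.91 and 0.35 between the constructs. In SETDB1 OE against empty vector the chosen probe changed by 0.43 and the others by 0.49 and -0.15. On the last of these SETDB1 OE did not lie above empty vector. UQCRC2, a core protein of the complex, read 8.63 and 8.79 in SETDB1 OE, 10.23, 8.87 and 8.89 in HC/KA-SETDB1 OE, and 9.57, 8.77 and 9.08 in empty vector. As with SDHD, the replicate 1 arrays of HC/KA-SETDB1 OE and empty vector were the highest. UQCRC1, the other core protein, read 10.46 and 10.44 in SETDB1 OE, 10.90, 10.65 and 10.86 in HC/KA-SETDB1 OE, and 10.32, 10.44 and 10.72 in empty vector. UQCR11, a small subunit, read 7.29 and 7.23 in SETDB1 OE, 6.1045, 7.45 and 6.71 in HC/KA-SETDB1 OE, and 7.02, 7.12 and 7.54 in empty vector. Its HC/KA-SETDB1 OE arrays spread over more than the difference between any groups. UQCRQ, which helps to bind ubiquinone, read 13.41 and 13.47 in SETDB1 OE, 13.16, 13.45 and 13.19 in HC/KA-SETDB1 OE, and 13.27, 13.28 and 13.43 in empty vector. UQCRH and UQCRHL are near-identical copies, as are UQCRB and the pseudogene UQCRBP1 and ATP5F1E and the pseudogene ATP5F1EP2, so their probes may share transcripts. None of the 6 was called.

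Complex V, the ATP synthase, couples the proton flow through its membrane part to ATP synthesis in its F1 head. None of its 18 members was called. ATP5F1B, the catalytic subunit, read 13.95 and 13.86 in SETDB1 OE, 13.91, 13.95 and 13.91 in HC/KA-SETDB1 OE, and 13.99, 13.87 and 13.86 in empty vector. The 95% interval of its change lay between -0.41 and 0.39 in SETDB1 OE against empty vector. ATP5F1D, a subunit of the rotating central stalk, read 10.79 and 10.94 in SETDB1 OE, 11.66, 11.36 and 11.60 in HC/KA-SETDB1 OE, and 11.19, 11.26 and 11.49 in empty vector. The SETDB1 OE arrays were the lowest, with changes of -0.45 (SE 0.20, adjusted p 0.457) against empty vector and -0.67 (SE 0.20, adjusted p 0.0850) against HC/KA-SETDB1 OE. The change between the constructs ranged from -0.76 to -0.41 over 19 alternatives and passed in 3 of them (adjusted p 0.0440 to 0.378). A second ATP5F1D probe changed by -0.15. ATP5MK, a small subunit that joins ATP synthase dimers, read 9.57 and 9.22 in SETDB1 OE, 10.31, 9.64 and 10.07 in HC/KA-SETDB1 OE, and 9.79, 9.53 and 9.59 in empty vector, with overlap between each construct and empty vector. The median log2 change was -0.01 over the 5 genes of the F1 head, 0.08 over the 3 of the c-ring and 0.01 over the 4 of the peripheral stalk in SETDB1 OE against empty vector. In HC/KA-SETDB1 OE against empty vector these medians were 0.02, -0.08 and -0.15.

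**Figure D4:**
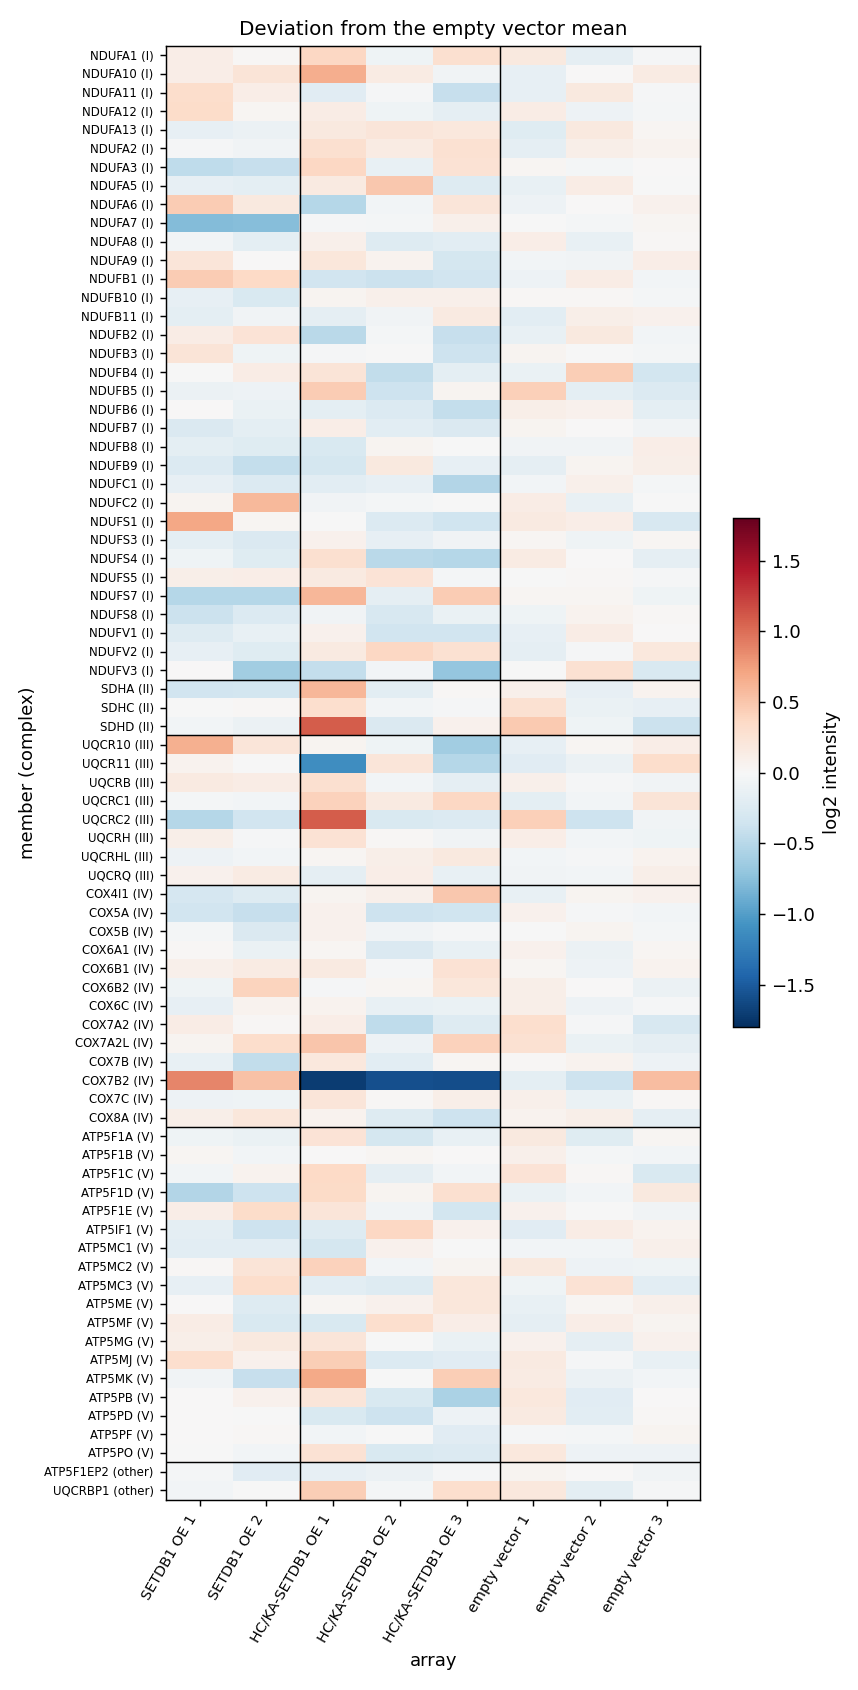
Deviation of each of the 78 members from its empty vector mean on each array, in log2 intensity, from blue (lower) to red (higher), with the complex in brackets and lines between complexes and between groups. COX7B2 is the dark blue row under HC/KA-SETDB1 OE at about 1.6 below the empty vector mean, and NDUFA7 is blue on both SETDB1 OE arrays.

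A gene was read from its passing probe of highest mean, and 22 members had 25 further passing probes. The sign of the change was the same as that of the chosen probe for 18 of the 25 in each comparison with empty vector and for 17 between the constructs. The widest disagreement was in ATP5MC1, a c-ring gene, where the chosen probe changed by -0.12 and another probe by 0.80 between the constructs. ATP5IF1, the inhibitor of the reverse reaction, changed by -0.27 on its chosen probe and by 0.41 on another in SETDB1 OE against empty vector. COX7B2, NDUFA7 and NDUFB1 had no other passing probe.

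Genes around the pathway were counted from 6 lists. No gene of any of them was called by limma against empty vector in either construct, and 13 of the 140 genes (9.29%) reached an unadjusted p under 0.05 in SETDB1 OE and 17 (12.1%) in HC/KA-SETDB1 OE, where 10.8% and 12.5% of all genes did. Between the constructs 45 (32.1%) reached an unadjusted p under 0.05, against 22.1% of all genes. There 6 (4.29%) were called, all lower in SETDB1 OE, against 4.34% of all genes called in either direction and 2.26% called lower. They were 1 of 56 assembly factors, 1 of 19 regulators of mitochondrial biogenesis, 1 of 16 genes of the citric acid cycle, 2 of 25 genes of carriers, import and cristae, 1 of 21 glycolysis genes, and none of the 3 measured subunit genes outside the symbol families. The list medians between the constructs were -0.07, -0.07, -0.24, -0.12, -0.11 and 0.03 in that order, against -0.01 over all genes. Of the 6 called genes, the 2 of carriers, import and cristae were CKMT1A and CKMT1B. These are near-identical copies, so 1 difference may be counted as 2 in the share called.

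PPARGC1A, which encodes the coactivator PGC-1alpha, read 5.88 and 5.39 in SETDB1 OE, 8.99, 7.40 and 7.94 in HC/KA-SETDB1 OE, and 8.46, 6.92 and 7.94 in empty vector. Both SETDB1 OE arrays lay below the 6 others, and the other groups overlapped. Its log2 change between the constructs was -2.48 (SE 0.49, adjusted p 0.0240), while the change against empty vector, -2.14 (SE 0.49), did not pass (adjusted p 0.123). The call between the constructs stood in 12 of 19 alternatives and was lost without SETDB1 OE replicate 1 or 2 or HC/KA-SETDB1 OE replicate 3 (adjusted p 0.150, 0.160 and 0.0749). MITF, a pigment cell factor known to raise PPARGC1A in melanoma, read 8.40 and 7.98 in SETDB1 OE, 9.85, 9.32 and 9.03 in HC/KA-SETDB1 OE, and 9.61, 8.81 and 9.54 in empty vector, and its change of -1.21 between the constructs did not pass (adjusted p 0.0547). On the same arrays the median of all 78 members deviated from the empty vector mean by -0.02 and -0.06 in SETDB1 OE, by 0.09, -0.06 and -0.06 in HC/KA-SETDB1 OE, and by 0.03, -0.02 and -0.02 in empty vector.

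SDHAF4, an assembly factor of complex II, read 5.96 and 5.58 in SETDB1 OE, 7.73, 6.81 and 7.18 in HC/KA-SETDB1 OE, and 6.92, 6.48 and 6.59 in empty vector, in groups that did not overlap except HC/KA-SETDB1 OE with empty vector. Its change between the constructs was -1.47 (adjusted p 0.0209), and that call stood in 13 of 19 alternatives. Among the alternatives that lost it were those without SETDB1 OE replicate 1 or 2 and without HC/KA-SETDB1 OE replicate 3 (adjusted p 0.0682 for the last). ALDOC, a glycolytic aldolase, read 9.74 and 9.73 in SETDB1 OE, 11.93, 11.39 and 11.67 in HC/KA-SETDB1 OE, and 10.92, 10.46 and 10.73 in empty vector. All 3 groups were apart, and its change between the constructs, -1.93 (SE 0.23, adjusted p 0.00280), stood in all 19 alternatives (adjusted p 0.000224 to 0.0477).

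OGDH, a subunit of the 2-oxoglutarate dehydrogenase of the citric acid cycle, fell by 1.45 on the log2 scale in SETDB1 OE against HC/KA-SETDB1 OE (adjusted p 0.0381). That call stood in 9 of 19 alternatives and was lost without SETDB1 OE replicate 1 or 2, HC/KA-SETDB1 OE replicate 3 or empty vector replicate 2 (adjusted p 0.206, 0.186, 0.0970 and 0.0666). Over the mean of its passing probes the OGDH change was -0.74. CKMT1A and CKMT1B, near-identical copies of a mitochondrial creatine kinase whose probes may share transcripts, changed by -1.62 and -1.38 between the constructs (adjusted p 0.0140 and 0.0199). Their calls stood in 16 and 15 of 19 alternatives. Among the alternatives that lost them were those without SETDB1 OE replicate 1 or 2 and without HC/KA-SETDB1 OE replicate 3 (adjusted p 0.0527 and 0.0661 for the last).

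**Figure D5:**
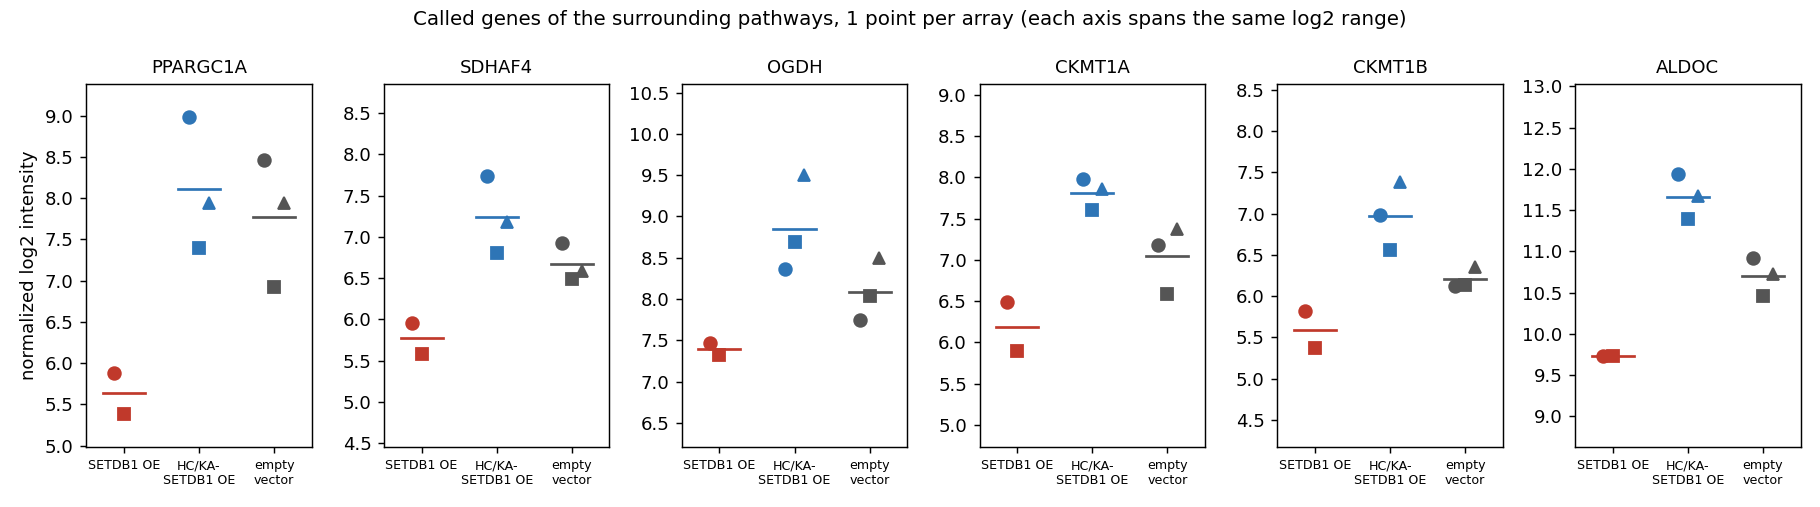
Normalized log2 intensity on each array of the 6 called genes from the lists around the pathway, with groups from left to right SETDB1 OE, HC/KA-SETDB1 OE and empty vector. Symbols and lines are as for the called members, and each axis spans the same log2 range. The SETDB1 OE arrays lie lowest in all 6 panels, and ALDOC separates all 3 groups.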

How the data were processed

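Total RNA of 8 HT144 samples was hybridised as biotinylated cRNA to Illumina bead arrays, per the labels' protocols. The authors deposited linear bead intensity values without normalization, per the file headers, each with a detection p-value. They also deposited processed log2 values, whose 8 columns each had a median of 6.53 and differed from plain quantile-normalized log2 intensities by a median of 0.0143. These served as an alternative only. Scanner and software are not given in the sources used here.

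Of 48107 probes, 5 with a missing cell were left out. Platform annotation named 30110 probes by a single symbol, updated through RefSeq (GRCh38.p14). Intensities were background-corrected with normexp from the detection p-values, given an offset of 16, quantile-normalized on the linear scale and then taken to log2 (limma 3.58.1, R 4.3.3, the data.table package, version 1.17.8), and 26689 probes passed. limma's moderated test was used on the 8 arrays together, with the 3 groups sharing 1 estimate of the spread, two-sided, with Benjamini-Hochberg adjustment over 13974 genes. A fold against a group with no detected array is a bound, computed against the lowest detected signal of its arrays or the probe's own, whichever is higher. Such a bound uses group means and carries no sampling error. On simulated data with 13974 genes, changes were given to 100 genes per size, drawn from all genes. A log2 change of 1 was recovered for 37%, 36% and 35% of them in SETDB1 OE and HC/KA-SETDB1 OE against empty vector and between the constructs. A change of 2 was recovered for 91%, 95% and 84%, with 8, 7 and 8 false calls. The members varied less than all genes, so these shares do not give the recovery for members. Plots used matplotlib 3.10.9 under Python 3.11.15.

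The members and lists were chosen with earlier results of these data known. Named were called members, the 4 largest changes each way per comparison, the smallest p per complex, tissue isoforms with their partners, and up to 2 genes per list and comparison. Replicate numbers come from the sample titles. The deviations of same-numbered HC/KA-SETDB1 OE and empty vector arrays correlated at 0.460, 0.189 and 0.145, each over the criterion of 0.1. The differently numbered HC/KA-SETDB1 OE 2 and empty vector 3 correlated at 0.365, above the last 2 of these. The SETDB1 OE arrays correlated with their numbers at 0.147 and 0.119 in empty vector and 0.116 and 0.0309 in HC/KA-SETDB1 OE. These values cannot decide whether the numbers pair the arrays. The main fit used no pairing, and the replicate block was an alternative. Alternatives were the normalization, offset, filter, probe choice, weights, block, moderation and leaving out each array. The number of arrays limits the precision.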

Additional observations from a re-analysis of the deposited data

Results flagged for a closer look

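Between the constructs, measured in 1 fit on the same arrays, 3 members differed. COX7B2 differed by 2.33 on the log2 scale in SETDB1 OE against HC/KA-SETDB1 OE, higher on 2 of 2 SETDB1 OE arrays than on all 3 HC/KA-SETDB1 OE arrays. NDUFA7 differed by -0.79, lower on 2 of 2 SETDB1 OE arrays. NDUFB1 differed by 0.77, higher on 2 of 2 SETDB1 OE arrays. These were picked out because the test of the difference between the effects of the constructs passed. Each of the 3 calls is lost when certain single arrays are left out, as given with their values above, which for COX7B2 is SETDB1 OE replicate 1 (adjusted p 0.0537).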

How the results depend on the processing

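No member was called for SETDB1 OE against empty vector in limma in 9 of 11 settings and whenever 1 array was left out (0 to 0), and 1 was called with quantile normalization alone and in the authors' processed values. For HC/KA-SETDB1 OE against empty vector the count was 0 with quantile normalization alone, an offset of 50, the authors' values, no detection filter (84 members tested) and detection required on all 8 arrays, where COX7B2 is not tested, and 0 to 1 with 1 array left out. Between the constructs it was 1 with scaling to the 75th percentile, detection on all 8 arrays, only the 2 groups compared and the replicate block, and 0 to 4 with 1 array left out. The block gave 0, 1 and 1 members in the 3 comparisons. The causes of these shifts were not tested. The median change of the members, with 1 array left out, was -0.0663 to -0.0007, -0.0694 to 0.0048 and -0.0592 to 0.0528 in the same order, and in the last case it turned positive without HC/KA-SETDB1 OE replicate 1. The SDHD change in HC/KA-SETDB1 OE was -0.0920 without replicate 1 of that group, and ranged up to 0.5850 with another array left out. Counts over all genes were 37, 45 and 606, and 6 to 155, 2 to 255 and 41 to 1315 over the alternatives. Leaving out a SETDB1 OE array leaves 1, which is assumed to vary like the other groups. Probes near background, such as COX7B2 in HC/KA-SETDB1 OE, limit what can be read of low genes.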

Other observations

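Other genes of the lists had changes that did not pass. LDHA, which makes lactate from pyruvate, read 13.65 and 13.78 in SETDB1 OE, 12.43, 13.35 and 12.46 in HC/KA-SETDB1 OE, and 13.52, 13.41 and 13.45 in empty vector. Its log2 change was 0.97 between the constructs (adjusted p 0.0754), opposite in sign to that of ALDOC. CHCHD6, a protein of the cristae junctions, read 7.96 and 8.37 in SETDB1 OE, 11.34, 9.04 and 10.49 in HC/KA-SETDB1 OE, and 10.85, 9.63 and 9.99 in empty vector, a change of -1.99 in SETDB1 OE against empty vector (SE 0.56, adjusted p 0.211). GABPB1, the partner of GABPA, read 7.9957 and 7.87 in SETDB1 OE, 7.21, 7.20 and 6.36 in HC/KA-SETDB1 OE, and 7.20, 7.49 and 7.35 in empty vector, and its change of 1.0093 between the constructs did not pass (adjusted p 0.0606). TFB1M, a mitochondrial ribosomal RNA methyltransferase, changed by -0.60 in SETDB1 OE and -0.53 in HC/KA-SETDB1 OE against empty vector (adjusted p 0.317 and 0.284), comparisons that share the empty vector arrays.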
